A study of Mus musculus with 146 samples.

Results

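Mitosis-high and mitosis-low cultures are the 36 libraries with the highest and the 36 with the lowest mitosis score among 146 RNA-seq libraries of bone marrow-derived macrophages, 1 library per mouse. The mice were outbred, labelled Crl:CFW(SW)-US_P08, and 16 weeks old. In both groups marrow cells were grown for 5 days in medium with 25% L929-conditioned medium, which supplies the macrophage growth factor CSF-1, and no treatment was labelled. By its title the series concerns wound healing and a cholesterol network of macrophages. The score of a library was the mean z-score of Top2a, Ccna2, Mki67, Nuf2, Kif4 and Shcbp1, each taken as log2(CPM + 1) with the mean of its plate subtracted. CPM scales counts to 1 M counts of the library. The other 74 libraries fell between the groups.

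A macrophage that divides passes from G1 through S phase, in which its DNA is copied, to mitosis, in which the spindle pulls the chromosome copies apart. Transcription follows this order. E2F factors drive genes of S phase, and genes of mitosis are held down by the DREAM complex in resting and G1 cells and switched on later by MuvB with B-MYB and FOXM1. MuvB binds the cell cycle genes homology region (CHR) of such promoters, and NF-Y binds their CCAAT boxes. CSF-1 keeps macrophages from marrow in division during culture, and cells stop dividing as they mature. Each library is bulk RNA of a culture, so fewer dividing cells and less of a transcript per dividing cell cannot be told apart in any result below.

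The score ran from 0.685 to 2.08 in the mitosis-high libraries and from -3.10 to -0.487 in the mitosis-low libraries, with medians of 0.960 and -0.965. The library just outside the mitosis-high group scored 0.648, and the one just outside the mitosis-low group scored -0.482. The groups are the ends of a continuous range and no gap separates them from the other libraries. The 6 genes chose the groups, and their levels are given with no test. Top2a, the topoisomerase that untangles sister chromatids, had a lowest, median and highest level of 662, 768 and 875 CPM in mitosis-high libraries, against 478, 595 and 664 CPM in mitosis-low libraries. Ccna2, cyclin A2, had 265, 311 and 373 CPM in mitosis-high libraries, against 185, 236 and 279 CPM in mitosis-low libraries. Mki67, the coat protein of mitotic chromosomes, had 1356, 1581 and 1876 CPM in mitosis-high libraries, against 939, 1256 and 1510.3 CPM in mitosis-low libraries. For these 3 genes the ranges of the groups overlapped in part, and every mitosis-high library was above the mitosis-low median. Nuf2, a kinetochore protein, had medians of 80.7 CPM in mitosis-high and 58.8 CPM in mitosis-low libraries. Kif4, a chromosome-bound kinesin, had medians of 84.4 CPM in mitosis-high and 64.5 CPM in mitosis-low libraries, and Shcbp1, a protein of the cytokinesis midbody, 51.7 CPM in mitosis-high and 37.5 CPM in mitosis-low libraries. The contrast is one of degree: the low cultures also carried all 6 transcripts in every library. Over the 146 libraries the 6 genes varied together, with pairwise Pearson r of 0.804 to 0.896 as a description.

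**Figure D1:**
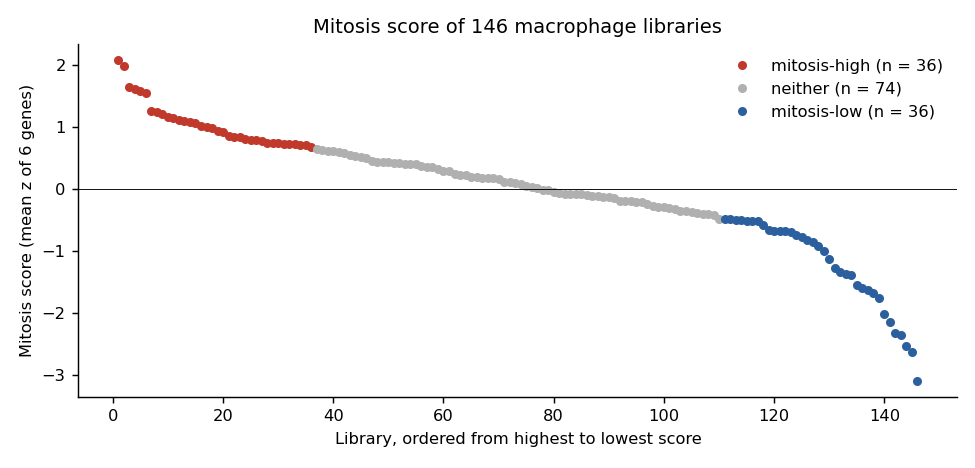
Mitosis score of each of the 146 libraries, a mean of 6 z-scores on the y axis, ordered from the highest on the left to the lowest on the right. Red points are the 36 mitosis-high, grey points the 74 other and blue points the 36 mitosis-low libraries, and the scores form a continuous slope with a longer tail at the low end, where the lowest library reached -3.10.

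The labels put 20 libraries of females and 16 of males in the mitosis-high group, against 19 and 17 in the mitosis-low group (odds ratio 1.12, p = 1, Fisher's exact test, two-sided). Depth ranged over 19.4 to 115 M counts in mitosis-high and 14.5 to 121 M counts in mitosis-low libraries, and mean log2 depth differed by -0.06 (p = 0.664, permutation test, two-sided). Both groups had libraries on all 7 plates. Y-linked counts went against the labelled sex in 1 mitosis-high and 2 mitosis-low libraries, and in 3 of the others. The groups were unevenly spread over the 28 collection date labels: 11 held libraries of both groups, 8 held mitosis-high but no mitosis-low libraries, and 6 the reverse. Differences between date labels made up 34.8% of the variance of the score, those between combinations of plate and lane 24.9% and those between labelled sexes 0.269%. These shares were not adjusted for the number of groups. More groups give a larger share even without a real difference, so the shares cannot be compared with each other. On 1 date label all 5 libraries were mitosis-low. For a gene list, the result with date label in place of plate is given in brackets where a count differed by at least 2 genes and 1.5 times, or where the median changed sign.

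**Figure D2:**
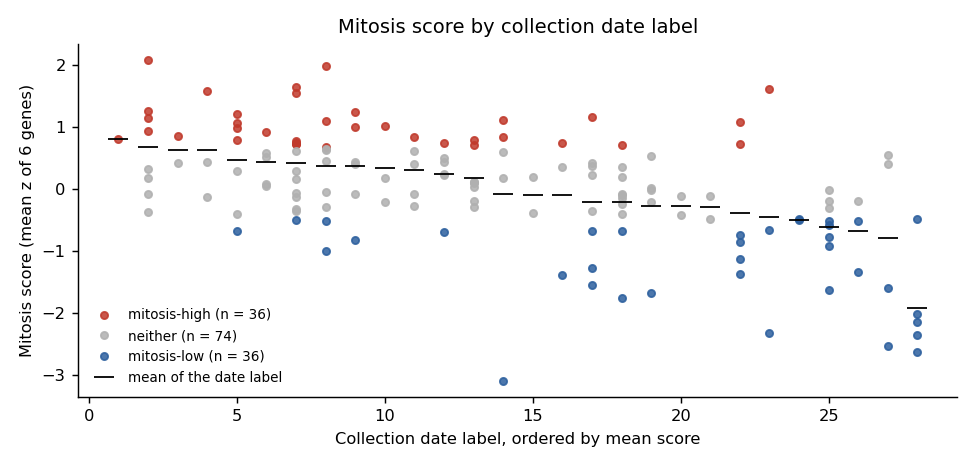
Mitosis score on the y axis by collection date label on the x axis, with the 28 labels ordered by their mean score (black bars). Red, grey and blue points are mitosis-high, other and mitosis-low libraries, and the label at the far right holds 5 mitosis-low libraries and no other.

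Outside the 6 score genes, 3165 of 11929 tested genes were higher (26.5%) and 3222 lower (27%) in mitosis-high libraries (53.5% in either direction), by edgeR's quasi-likelihood test with plate as covariate at a Benjamini-Hochberg adjusted p under 0.05. The libraries were chosen by measured transcripts, so these p-values measure association with the score and not the effect of a treatment, and mice of 1 date label may not be independent. The median log2 difference over all tested genes was -0.0039. Most differences were small: among the genes past the threshold the median size was 0.20 on the log2 scale. More than 2-fold, 14 genes were higher and 98 were lower. No gene had ranges in the 2 groups that did not overlap. With date label in place of plate, 19.4% of the genes were higher and 19.6% lower (39% in either direction), and 4411 of the 6387 genes past the threshold passed again with the same sign. Within the 11 date labels that held both groups (24 mitosis-high and 19 mitosis-low libraries), with date label as covariate, 2365 genes were higher and 2367 lower, and 4449 of the 6387 genes passed with the same sign.

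Genes of the mitotic machinery were higher in the mitosis-high cultures in nearly all of the lists' members. Of all tested genes 26.5% were higher and 27% lower. In 7 lists that cover mitotic kinases, the chromosomal passenger complex, kinetochores, the checkpoint, spindle motors, condensin and cohesin, and cytokinesis, 97 of 110 tested members were higher and 2 lower (median 0.26). These genes were picked for the same process as the score, so their direction is no independent sign of it. Bub1, a checkpoint kinase at the kinetochore (chromosome 2, 127801122 to 127831865 of GRCm38), had a lowest, median and highest level of 89.3, 122 and 142 CPM in mitosis-high libraries, against 52.9, 78.4 and 112 CPM in mitosis-low libraries. Its log2 difference was 0.56 ± 0.04 (SE; adjusted p = 3.00e-16), and 36 of 36 mitosis-high libraries were above the mitosis-low median although the ranges overlapped. Smc2, a condensin ATPase that compacts chromosomes (chromosome 4, 52439243 to 52488260), had 234, 282 and 351 CPM in mitosis-high libraries, against 172, 210.4 and 257 CPM in mitosis-low libraries. Its difference was 0.37 ± 0.03 (SE; adjusted p = 3.37e-17), with 36 of 36 mitosis-high libraries above the mitosis-low median, and both genes were higher in all 7 plates. Plk4, the kinase that starts centriole duplication (chromosome 3, 40800019 to 40816883), had 49.8, 59.4 and 69.3 CPM in mitosis-high libraries, against 35.4, 43.8 and 62 CPM in mitosis-low libraries, a difference of 0.37 ± 0.03 (SE; adjusted p = 1.88e-16). These 3 genes had the smallest p of the mitotic lists among genes with a promoter in the RefSeq table.

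Their promoters, from 250 bases before to 50 bases after the RefSeq transcription start, are shown because the CHR, a motif of mitotic genes, was counted in them. Sequences are from RefSeq GRCm38.p6, 5′ to 3′ on the strand of the gene, and capitals mark the CHR (TTTGAA or TTCGAA) and the CCAAT box on either strand. They lie at chr4:52438971-52439270 (plus strand), chr3:40799701-40800000 (plus strand) and chr2:127831810-127832109 (minus strand).
Smc2: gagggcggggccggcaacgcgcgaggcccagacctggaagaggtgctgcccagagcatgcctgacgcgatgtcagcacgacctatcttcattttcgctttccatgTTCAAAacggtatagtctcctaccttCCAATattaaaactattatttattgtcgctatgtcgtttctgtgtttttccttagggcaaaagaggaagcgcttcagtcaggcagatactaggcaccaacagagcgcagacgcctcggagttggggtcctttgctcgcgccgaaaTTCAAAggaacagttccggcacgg
Plk4: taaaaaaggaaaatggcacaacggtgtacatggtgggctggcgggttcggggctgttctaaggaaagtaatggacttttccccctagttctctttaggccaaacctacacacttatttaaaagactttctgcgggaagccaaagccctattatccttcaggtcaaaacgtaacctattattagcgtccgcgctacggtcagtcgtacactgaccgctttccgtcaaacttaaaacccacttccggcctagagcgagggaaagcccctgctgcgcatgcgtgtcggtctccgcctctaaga
Bub1: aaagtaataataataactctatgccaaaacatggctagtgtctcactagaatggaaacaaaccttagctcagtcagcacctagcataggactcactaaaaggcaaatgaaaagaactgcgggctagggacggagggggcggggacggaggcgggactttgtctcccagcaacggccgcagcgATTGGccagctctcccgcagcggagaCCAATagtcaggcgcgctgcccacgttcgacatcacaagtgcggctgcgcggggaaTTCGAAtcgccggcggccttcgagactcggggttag
The Smc2 window holds a CHR at -145 and at 27 from the start and a CCAAT box between them at -119. The Bub1 window holds CCAAT boxes at -68 and -42 and a CHR of the form TTCGAA at 15. The Plk4 window holds neither. Of the 92 mitotic-list genes with a promoter in the table, 55 held a CHR of either form (59.8%), against 1292 of 9346 tested genes (13.8%) and 19.4% of all 27025 promoters. The CCAAT box stood in 67.4% of the mitotic-list promoters, against 66.7% of those of the DNA replication list, 39.2% of those of tested genes and 37.9% of all. In the DNA replication list 21.2% of the promoters held a CHR. The E2F motifs TTTGGCGC and TTTCCCGC, read on both strands, stood in 9.78% of the mitotic-list promoters, in 12 of 33 promoters of the DNA replication list (36.4%), in 3.24% of those of tested genes and in 1.63% of all. TTCGAA is its own reverse complement, and matches of different motifs may overlap in a promoter. Such matches describe the windows and are not shown to be sites of a factor.

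By role, the kinases that drive entry into mitosis included Melk, with medians of 51.1 CPM in mitosis-high and 40.2 CPM in mitosis-low libraries and a difference of 0.39 ± 0.04, and Cdc25c, the phosphatase that switches on Cdk1, with 0.33 ± 0.04. Cdk1, the central mitotic kinase, was higher by 0.25 ± 0.03, and Plk1, Polo-like kinase, by 0.34 ± 0.05 (SE each). In this list 11 of 13 tested members were higher and 0 lower (median 0.25), against 26.5% and 27% of all tested genes. All 4 tested passenger genes were higher (median 0.30), among them Birc5, survivin, by 0.37 ± 0.04, and Aurkb, its kinase partner, by 0.32 ± 0.04. At the kinetochore 21 of 25 tested members were higher and 1 lower (median 0.30). The outer kinetochore genes Ndc80, by 0.35 ± 0.03, and Knl1, by 0.37 ± 0.03, and the inner kinetochore gene Cenpi, by 0.40 ± 0.04, were higher. The exception was Cenpa, the centromeric histone H3, with medians of 105 CPM in mitosis-high and 130.4 CPM in mitosis-low libraries and a difference of -0.33 ± 0.06 (adjusted p = 8.65e-06), and it is named after its value was seen.

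Among spindle motors and microtubule proteins 23 of 24 tested members were higher and 0 lower (median 0.26). The shares over all tested genes were 26.5% higher and 27% lower. Kif15, a spindle kinesin, was higher by 0.36 ± 0.03, Kif11, the kinesin that separates the poles, by 0.29 ± 0.03, and Tpx2, an activator of Aurora A, by 0.29 ± 0.03. For condensin and cohesin 19 of 20 tested members were higher and 0 lower (median 0.24), among them Smc2 and its partner Smc4 (0.35 ± 0.03, medians of 328 CPM in mitosis-high and 247 CPM in mitosis-low libraries). For cytokinesis 10 of 10 tested members were higher and 0 lower (median 0.28), with Ect2, the activator of the RhoA ring, at 0.35 ± 0.03 and Anln, anillin, at 0.28 ± 0.03. In the checkpoint and anaphase-promoting complex list 12 of 17 tested members were higher and 1 lower (median 0.14). Its checkpoint members Mad2l1 (0.31 ± 0.03), Bub1b (0.32 ± 0.03) and Ttk (0.32 ± 0.03) lay above its ubiquitin ligase subunit Anapc1 (0.19 ± 0.02).

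**Figure D3:**
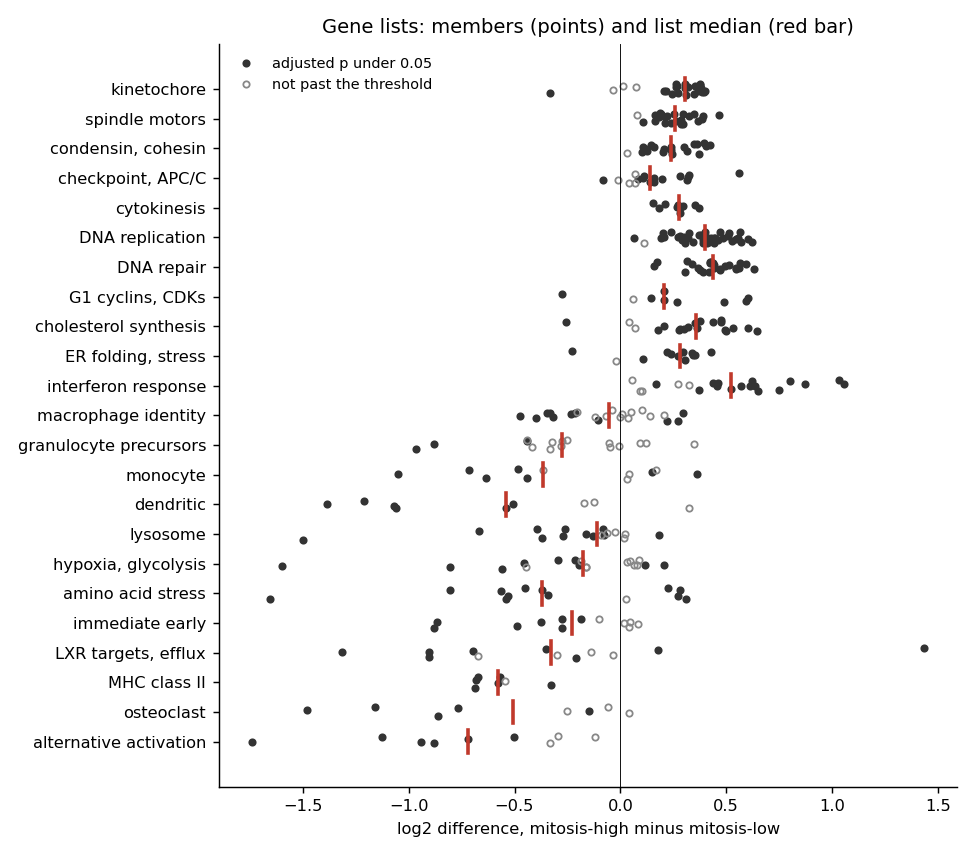
Log2 difference, mitosis-high minus mitosis-low libraries, of each tested member of 23 gene lists (points, filled where the adjusted p was under 0.05) with the list median (red bar). Lists of mitosis, DNA replication and repair sit with their medians to the right of 0, while the medians of the monocyte, dendritic, MHC class II, osteoclast and alternative activation lists sit to the left.

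Genes of S phase were higher as well, where 26.5% of all tested genes were higher and 27% lower. For DNA replication 40 of 41 tested members were higher and 0 lower (median 0.40). Pola1, the catalytic subunit of DNA polymerase alpha (chromosome X, 93304767 to 93632155), had a lowest, median and highest level of 63.5, 100.4 and 123 CPM in mitosis-high libraries, against 35.7, 63.1 and 98.5 CPM in mitosis-low libraries. Its difference was 0.62 ± 0.07 (SE; adjusted p = 1.25e-11), and 36 of 36 mitosis-high libraries were above the mitosis-low median. The mitosis-low libraries spread more widely than the mitosis-high ones for this gene, and their upper part lay within the mitosis-high range. Prim1, the primase, was higher by 0.53 ± 0.06, and Mcm10, a factor of origin firing, by 0.51 ± 0.06. For nucleotide supply 19 of 22 tested members were higher and 0 lower (median 0.30). Tyms, thymidylate synthase, had medians of 36.9 CPM in mitosis-high and 23.6 CPM in mitosis-low libraries and a difference of 0.66 ± 0.08, and Rrm2, of ribonucleotide reductase, 0.54 ± 0.06. For DNA repair 25 of 25 tested members were higher and 0 lower (median 0.44), with Brca1 at 0.49 ± 0.06 and Brip1, its helicase partner, at 0.54 ± 0.06.

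Transcripts of genes that act from G1 to S phase differed too, where 26.5% of all tested genes were higher and 27% lower. Ccne2, cyclin E2, had 41.4, 69.8 and 91.9 CPM in mitosis-high libraries, against 22.8, 43.4 and 63.5 CPM in mitosis-low libraries, a difference of 0.60 ± 0.07 (SE; adjusted p = 2.29e-11). Its sister Ccne1 was higher by 0.59 ± 0.09 and the partner kinase Cdk2 by 0.27 ± 0.04. Ccnd1, cyclin D1, had 0.49 ± 0.09 and is uncertain because 20.8% of its 50-base words occur in another annotated gene. In the list 7 of 9 tested members were higher and 1 lower (median 0.21), the lower one being Ccnd2, cyclin D2, at -0.28 ± 0.08, which is named after its value was seen and had an adjusted p of 0.443 with date label in place of plate. Among DREAM, MuvB and E2F genes 15 of 19 tested members were higher and 2 lower (median 0.16). Lin9, a MuvB subunit, was higher by 0.41 ± 0.04, the repressor E2f7 by 0.45 ± 0.06 and the pocket protein Rbl1 by 0.48 ± 0.05. Among histone variant and chromatin genes 12 of 18 tested members were higher and 1 lower (median 0.29), with the helicase Hells at 0.61 ± 0.07 and Ezh2, the H3K27 methyltransferase, at 0.41 ± 0.04. In the nuclear envelope list 13 of 15 tested members were higher and 2 lower (median 0.30), with Tmpo, a lamin-binding protein, at 0.28 ± 0.03.

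CDK inhibitors did not share 1 direction, with 4 of 8 tested members higher and 2 lower (median 0.16). Of all tested genes 26.5% were higher and 27% lower. Cdkn1b, p27, the inhibitor tied to quiescence, had medians of 49.3 CPM in mitosis-high and 54.1 CPM in mitosis-low libraries and had a log2 difference of -0.20 ± 0.06 (adjusted p = 0.00664, and 0.128 with date label in place of plate). Cdkn2a, which encodes p16 and p19Arf, was higher (1.01 ± 0.24) at medians of 0.309 CPM in mitosis-high and 0.136 CPM in mitosis-low libraries, with an adjusted p of 0.0528 within the date labels that held both groups. Cdkn2c, p18, and Cdkn2d, p19, were higher, by 0.17 ± 0.04 and 0.23 ± 0.05. Cdkn1c, p57, was lower (-1.07 ± 0.20) at medians of 1.33 CPM in mitosis-high and 2.63 CPM in mitosis-low libraries and is uncertain, with 22.1% of its 50-base words shared. Among p53 targets 3 of 17 tested members were higher and 7 lower (median 0.05, and 1 higher and 7 lower with date label, median -0.19). There Mdm2, which degrades p53, was lower (-0.41 ± 0.10, medians of 212 CPM in mitosis-high and 269 CPM in mitosis-low libraries), as were Btg2, an antiproliferative gene (-0.71 ± 0.12), and Sesn2, a stress gene (-0.53 ± 0.09), while Sesn1 was higher (0.26 ± 0.05, adjusted p = 0.11 with groups from a score centred by date label).

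Among genes whose mean log2 CPM reached 1, the 12 largest differences in each direction were in no cell cycle or DNA repair list. Genes named only by a clone, Gm or Rik identifier were left out of this ranking. Over all tested genes past the threshold, more differed by over 2-fold towards lower than towards higher levels in mitosis-high cultures. Vegfa, the vascular growth factor (chromosome 17, 46016993 to 46032369), had 12.5, 57.7 and 247 CPM in mitosis-high libraries, against 24.3, 202 and 486 CPM in mitosis-low libraries. Its difference was -1.60 ± 0.21 (SE; adjusted p = 6.94e-09), with 34 of 36 mitosis-high libraries below the mitosis-low median and ranges that overlapped. Its mean was lower in 7 of 7 plates. Sdc1, syndecan-1, a cell-surface proteoglycan (chromosome 12, 8771323 to 8793715), had 5.87, 22.2 and 62.4 CPM in mitosis-high libraries, against 6.82, 71 and 242 CPM in mitosis-low libraries, a difference of -1.64 ± 0.23 (SE; adjusted p = 2.40e-08). For Sdc1, 36 of 36 mitosis-high libraries were below the mitosis-low median, and its mean was lower in 6 of 7 plates. Thbs1, thrombospondin-1, a matrix protein, had 12.4, 41 and 308 CPM in mitosis-high libraries, against 12, 128 and 558 CPM in mitosis-low libraries, a difference of -1.50 ± 0.25 (SE; adjusted p = 1.33e-06). Arg1, arginase-1, an enzyme of alternatively activated macrophages, had the largest of these differences, -1.74 ± 0.44 (SE; adjusted p = 6.51e-04), but its levels spread over 0.496, 16.1 and 138 CPM in mitosis-high libraries, against 0.172, 61 and 434 CPM in mitosis-low libraries. Its adjusted p was 0.139 with date label in place of plate, so its call does not hold under that covariate. The mean of Arg1 was lower in 6 of 7 plates. The others of the 12 lower genes were Atp6v0d2, a proton pump subunit (-1.50), Klk1b11, a kallikrein (-1.41), Mefv, pyrin (-1.40), Nptx1, a pentraxin (-1.35), Pltp, phospholipid transfer protein (-1.31), Fbxo32, an F-box protein (-1.23), H2-Ob, of the class II peptide loading machinery (-1.23), and H2-Q6, a nonclassical class I gene (-1.48, uncertain with 34% of its words shared), all as log2 differences.

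**Figure D4:**
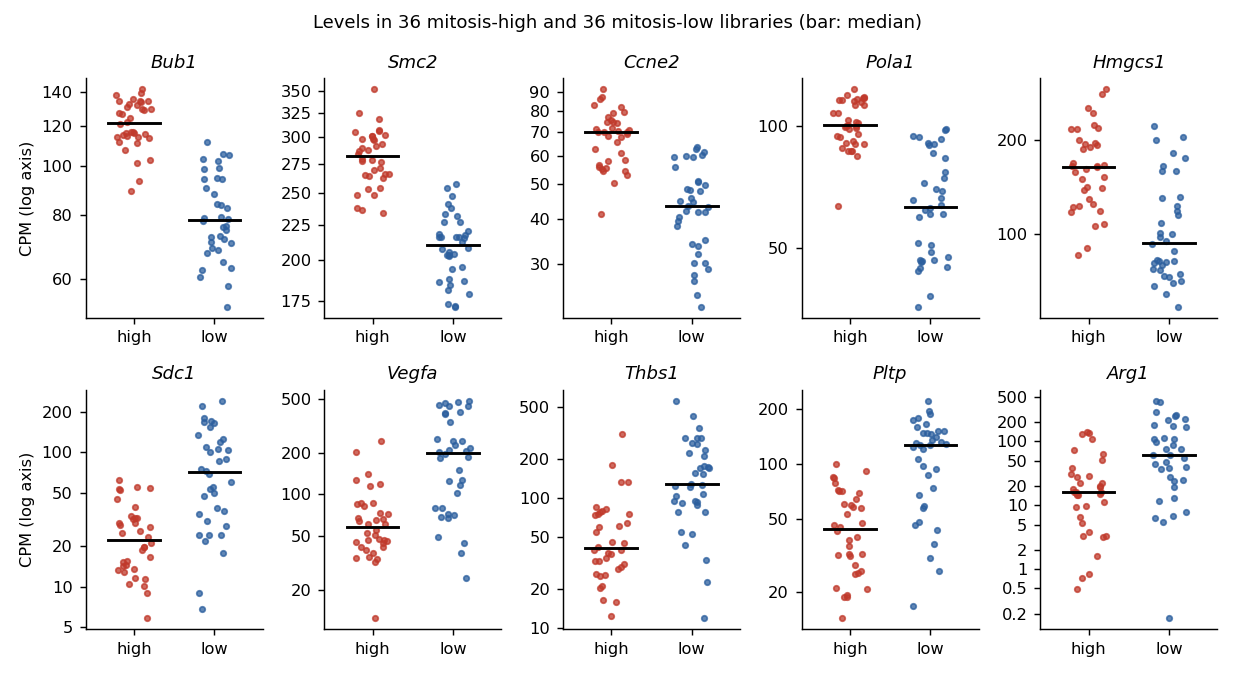
Level of 10 genes in CPM on log axes, 1 point per library, with the 36 mitosis-high libraries in red on the left and the 36 mitosis-low libraries in blue on the right of each panel, and the median as a bar. Every red point lies above the blue median for Bub1, Smc2 and Pola1, and every red point lies below it for Sdc1 and Pltp. Vegfa, Sdc1, Thbs1, Pltp and Arg1 differ more in median but spread widely within each group.

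The 12 higher genes at this level were led by Ch25h, cholesterol 25-hydroxylase, with 5.81, 33.1 and 124 CPM in mitosis-high libraries, against 1.04, 10.9 and 61.1 CPM in mitosis-low libraries. Its difference was 1.43 ± 0.29 (SE; adjusted p = 3.35e-05), and 33 of 36 mitosis-high libraries were above the mitosis-low median. The mean of Ch25h was higher in 6 of 7 plates. The chemokine genes among the 12 were Ccl12 (1.11, medians of 4.66 CPM in mitosis-high and 2.36 CPM in mitosis-low libraries) and Cxcl10 (1.06, medians of 2.80 CPM in mitosis-high and 1.16 CPM in mitosis-low libraries), whose adjusted p was 0.0949 without plate 10 and 0.0548 without plate 4. Gdf3, a TGF-beta family factor, had a difference of 1.07, and its adjusted p was 0.231 with date label in place of plate. The rest were Oas1g, an interferon-induced enzyme (1.02, uncertain with 46.2% of its words shared), Nes, nestin (0.98), Sema3c, a semaphorin (0.97), Uaca (0.96), Epdr1 (0.96, adjusted p = 0.0517 with groups from a score centred by date label), Kcnj10, a potassium channel (0.94), Sdc2, syndecan-2 (0.91), and Ttc39a (0.90). Both syndecans named by the rule thus differed in opposite directions.

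Genes of cholesterol synthesis were higher in mitosis-high cultures. In the pathway 17 of 20 tested members were higher and 1 lower (median 0.36). The shares over all tested genes were 26.5% higher and 27% lower. Hmgcs1, the synthase that feeds the mevalonate pathway (chromosome 13, 119690379 to 119708260), had 85.7, 164 and 289 CPM in mitosis-high libraries, against 58.6, 93.6 and 221 CPM in mitosis-low libraries, a difference of 0.53 ± 0.09 (SE; adjusted p = 1.86e-06). Hsd17b7, of the later steps, had 0.48 ± 0.08, and the exception was Tm7sf2, a sterol reductase, at -0.26 ± 0.05. The SREBP-driven genes Insig1, of sterol feedback (0.44 ± 0.11), and Stard4, a sterol carrier (0.54 ± 0.09), were higher as well. In the sterol sensing and uptake list as a whole 4 of 11 tested members were higher and 5 lower (median -0.02), with Npc2, which moves cholesterol out of lysosomes, at -0.29 ± 0.03. Among LXR targets and efflux genes 2 of 12 tested members were higher and 6 lower (median -0.33). Pltp had medians of 44.2 CPM in mitosis-high and 127 CPM in mitosis-low libraries, and the cholesterol exporters Abca1 and Abcg1 had differences of -0.91 ± 0.14 and -0.90 ± 0.15. In fatty acid synthesis 7 of 12 tested members were higher and 1 lower (median 0.13, and 4 higher and 0 lower with date label, median 0.09), with Fasn at 0.42 ± 0.09. In the list of folding and stress genes of the endoplasmic reticulum 10 of 12 tested members were higher and 1 lower (median 0.28). Pdia4 had 0.43 ± 0.08 and Dnajb11 0.30 ± 0.06.

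Interferon response genes were higher, with 16 of 21 tested members higher and 0 lower (median 0.52). Over all tested genes the shares were 26.5% higher and 27% lower. Rtp4 had medians of 16.8 CPM in mitosis-high and 7.31 CPM in mitosis-low libraries (0.87 ± 0.24), Oasl2 of 21.2 CPM in mitosis-high and 10.8 CPM in mitosis-low libraries (0.80 ± 0.21) and the RNA sensor Ifih1 of 23.7 CPM in mitosis-high and 16.7 CPM in mitosis-low libraries (0.44 ± 0.08). MHC class II genes were lower: 0 of 7 tested members were higher and 6 lower (median -0.58, and 0 higher and 4 lower with date label, median -0.40). Cd74, the invariant chain, had medians of 112 CPM in mitosis-high and 183 CPM in mitosis-low libraries and a difference of -0.58 ± 0.13, and Ciita, the class II activator, -0.68 ± 0.16. With lane within plate as covariate the adjusted p of Cd74 was 0.0877. In the alternative activation list 0 of 9 tested members were higher and 6 lower (median -0.72, and 0 higher and 3 lower with date label, median -0.47), with Fn1, fibronectin, at -1.13 ± 0.23, Irf4 at -0.94 ± 0.17 and Egr2 at -0.88 ± 0.19. Among inflammatory genes 3 of 14 tested members were higher and 8 lower (median -0.24, and 2 higher and 5 lower with date label, median -0.22). There Ccl2, a monocyte chemokine, was higher at medians of 461 CPM in mitosis-high and 286 CPM in mitosis-low libraries (0.47 ± 0.10), and Il1b was lower at medians of 0.966 CPM in mitosis-high and 1.67 CPM in mitosis-low libraries (-0.60 ± 0.21), with an adjusted p of 0.129 with date label in place of plate.

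Metabolic, stress and lysosomal lists are set beside the 26.5% of all tested genes that were higher and the 27% that were lower. For hypoxia and glycolysis 2 of 18 tested members were higher and 7 lower (median -0.17, and 0 higher and 5 lower with date label, median -0.09), with Vegfa the lowest and Aldoa, aldolase, at -0.21 ± 0.04. For the integrated stress response 4 of 13 tested members were higher and 8 lower (median -0.37, and 2 higher and 8 lower with date label, median -0.40), with Atf4, its central factor, at -0.34 ± 0.07, Atf5 at -0.54 ± 0.08 and, as an exception, Psat1, of serine synthesis, at 0.27 ± 0.05. For lysosomal genes 1 of 16 tested members was higher and 10 lower (median -0.11), with Hexa, a hexosaminidase, at -0.37 ± 0.03 and Gpnmb at -0.40 ± 0.06. For osteoclast genes 0 of 8 tested members were higher and 5 lower (median -0.51), with Itgb3, integrin beta 3, at medians of 20.3 CPM in mitosis-high and 49 CPM in mitosis-low libraries (-1.16 ± 0.26). For immediate early genes 0 of 12 tested members were higher and 7 lower (median -0.23), and for heat shock 3 of 11 tested members were higher and 3 lower (median -0.05, and 3 higher and 2 lower with date label, median 0.03). For MYC and ribosome biogenesis genes 9 of 19 tested members were higher and 1 lower (median 0.06, and 6 higher and 1 lower with date label, median 0.09), with Nop58 at 0.18 ± 0.03.

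Markers of other marrow cells are set beside the same shares, 26.5% higher and 27% lower. The summed level of 11 monocyte genes ran over 1245 to 4106 CPM in mitosis-high libraries (median 2029), against 1372 to 4993 CPM in mitosis-low libraries (median 3349). In that list 2 of 11 tested members were higher and 5 lower (median -0.37, and 1 higher and 3 lower with date label, median -0.21), with F13a1, a factor XIII subunit, at medians of 1184 CPM in mitosis-high and 2361 CPM in mitosis-low libraries (-0.63 ± 0.15). F13a1 alone made up a large part of the monocyte sum and of its difference. Called or not, 5 of the 11 members had a positive difference, so the list did not share 1 direction. The sum of 9 dendritic genes ran over 16.7 to 63.9 CPM in mitosis-high libraries (median 28.2), against 18.7 to 129 CPM in mitosis-low libraries (median 51.6), with 0 of 9 tested members higher and 6 lower (median -0.54, and 0 higher and 4 lower with date label, median -0.24). The sum of 18 granulocyte precursor genes ran over 151 to 1963 CPM in mitosis-high libraries (median 375), against 204 to 1327 CPM in mitosis-low libraries (median 425), with 0 of 16 tested members higher and 3 lower (median -0.28, and 0 higher and 1 lower with date label, median -0.18). The sum of 12 stem and progenitor genes ran over 201 to 415 CPM in mitosis-high libraries (median 256), against 175 to 342 CPM in mitosis-low libraries (median 248), with 1 of 11 tested members higher and 3 lower (median -0.0014, and 1 higher and 3 lower with date label, median 0.16). The part of these cells in the results was not tested beyond a model with the monocyte score and 1 with the granulocyte precursor score as covariate, in which 3053 genes were higher and 3107 lower with the first, and 3048 genes were higher and 3078 lower with the second. Erythroid genes summed to medians of 0.138 CPM in mitosis-high and 0.146 CPM in mitosis-low libraries, and no erythroid gene was expressed enough to be tested. B cell genes had median sums of 2.67 CPM in mitosis-high and 3.89 CPM in mitosis-low libraries, T and NK cell genes 2.57 CPM in mitosis-high and 3.01 CPM in mitosis-low libraries, mast cell and basophil genes 4.53 CPM in mitosis-high and 5.32 CPM in mitosis-low libraries, with Tpsb2 at 0 in both groups. Megakaryocyte genes had median sums of 154 CPM in mitosis-high and 166 CPM in mitosis-low libraries, stromal genes 10.0 CPM in mitosis-high and 10.4 CPM in mitosis-low libraries and endothelial genes 97.2 CPM in mitosis-high and 95.1 CPM in mitosis-low libraries. Of the tested members 0 of 1 were higher and 1 lower in the B cell list, 0 of 1 were higher and 0 lower in the T and NK cell list, 0 of 2 were higher and 1 lower in the mast cell list, 0 of 4 were higher and 3 lower in the megakaryocyte list, 0 of 5 were higher and 0 lower in the stromal list and 1 of 4 were higher and 1 lower in the endothelial list.

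Macrophage genes were abundant in both groups, with a sum of 22 identity genes that ran over 14879 to 21009.7 CPM in mitosis-high libraries (median 17277), against 14962 to 28160.5 CPM in mitosis-low libraries (median 19253). In this list 3 of 22 tested members were higher and 8 lower (median -0.05), where 26.5% of all tested genes were higher and 27% lower. Csf1r, the CSF-1 receptor, had medians of 1719.5 CPM in mitosis-high and 1668 CPM in mitosis-low libraries. Spi1, PU.1, the master factor of the lineage, had medians of 224 CPM in mitosis-high and 257 CPM in mitosis-low libraries (-0.23 ± 0.03). Msr1, a scavenger receptor, was higher (0.30 ± 0.05). In growth factor signalling 1 of 12 tested members was higher and 6 lower (median -0.13): Csf2rb, the shared beta chain of the GM-CSF receptor, had medians of 399.6 CPM in mitosis-high and 679 CPM in mitosis-low libraries (-0.79 ± 0.09), and Csf2rb2, its mouse paralogue, 164 CPM in mitosis-high and 300.2 CPM in mitosis-low libraries (-0.87 ± 0.11).

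The mitosis score and a DNA replication score, built in the same way from the 41 replication genes, correlated over the 146 libraries, which share plates and dates, with r = 0.789 (Pearson) and rho = 0.672 (Spearman) as a description. With the replication score added as covariate, 7.16% of the 11929 genes were higher and 6.84% lower in mitosis-high libraries (14% in either direction). In the mitotic lists there were 68 of 110 genes higher and 3 lower (median 0.17). Smc2 (0.26 ± 0.04), Knl1 (0.36 ± 0.05), Smc4 (0.31 ± 0.05) and Anln (0.32 ± 0.05) were among those past the threshold. In the chromosomal passenger list, 1 gene of 4 passed. In other lists there were 0 of 20 genes higher and 3 lower (median -0.07) in cholesterol synthesis, 0 of 21 genes higher and 0 lower (median 0.13) in the interferon response, 1 of 25 genes higher and 0 lower (median 0.08) in DNA repair and 0 of 9 genes higher and 0 lower (median -0.05) in alternative activation. Vegfa had 0.00 ± 0.17, Sdc1 0.16 ± 0.22, Ch25h -0.06 ± 0.31 and Hmgcs1 0.01 ± 0.11 in this model (log2 difference and SE), none past the threshold. Arg1 had 0.36 ± 0.57 and an adjusted p of 0.72. In Vegfa, Sdc1, Ch25h and Arg1 the sign was opposite to that with plate alone. Of the 6387 genes past the threshold with plate alone, 728 passed again with the same sign, and 2259 (35.4%) had the opposite sign.

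**Figure D5:**
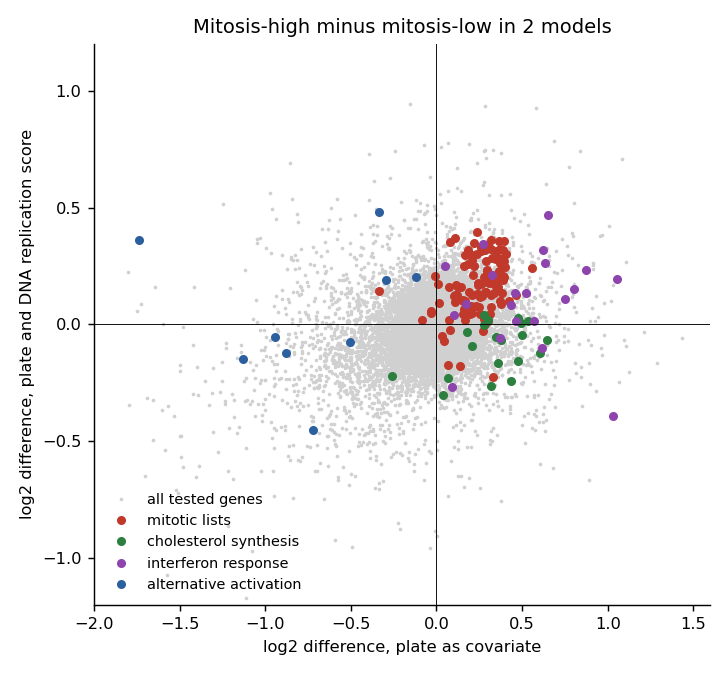
Log2 difference between mitosis-high and mitosis-low libraries with plate as covariate (x axis) and with plate and the DNA replication score as covariates (y axis), 1 point per tested gene. Mitotic-list genes (red) mostly stay above 0 on the y axis, cholesterol synthesis genes (green) lie around or below 0 there, and 3 genes lie outside the plotted range.

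The 74 libraries in neither group gave the same measure in libraries the comparison did not use, over a narrower range of scores. There the slope on the score passed the threshold for 47 genes upward (0.394%) and 17 downward (0.143%), or 0.537% in all, by edgeR's quasi-likelihood test, and 1225 genes had an unadjusted p under 0.05. In the mitotic lists 30 of 110 genes passed upward and 0 downward, with a median slope of 0.13. Smc2 rose by 0.14 ± 0.02 per unit of score, Bub1 by 0.21 ± 0.04 and Knl1 by 0.20 ± 0.04. Outside mitosis, Vegfa had a slope of -0.42 ± 0.29, Sdc1 -0.55 ± 0.28, Arg1 -1.46 ± 0.82, Ch25h 0.37 ± 0.34 and Hmgcs1 0.07 ± 0.11 per unit. Of the 6387 genes past the threshold between the groups, 5469 (85.6%) had a slope of the same sign in these libraries, and 63 passed. That share was not computed for the other tested genes. Lists differed: the slope was positive for 39 of 41 DNA replication genes and 1 of 9 alternative activation genes. It was positive for 12 of 21 interferon response genes (median 0.02), against 21 of 21 differences between the groups. For cholesterol synthesis these were 12 of 20 (median 0.02) and 19 of 20. No gene of these lists passed. Whether the difference between the groups depended on labelled sex was tested by an interaction term. No gene passed with edgeR at an adjusted p under 0.05 and 659 had an unadjusted p under 0.05, no other tool being run for it.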

How the data were processed

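Polyadenylated RNA of 146 macrophage libraries was sequenced as paired-end reads. Per the submitters' processing notes, TopHat2 2.0.11 and the build GRCm38 (mm10) served for alignment, HTSeq 0.6.1 for counting, FastQC for read quality and DESeq2 for normalisation. The authors deposited raw counts per gene, used here for all tests, and log2 values of a variance-stabilising transformation (VST), used for 1 alternative score. All columns matched a sample by name. Library depth was the sum of the deposited counts.

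The score, the members and the gene lists were chosen with earlier results of these data known. Counts were tested with edgeR 4.0.16 in R 4.3.3 (TMM, filterByExpr, quasi-likelihood test, plate as covariate), with Benjamini-Hochberg adjustment over all tested genes and a threshold of 0.05. SE is the log2 difference divided by the root of the F statistic. Genes were named from GENCODE M21 for 21899 of 22721 identifiers, and those with 20% or more of their 50-base words in another gene are called uncertain. Named are the 12 largest differences in each direction among genes whose mean log2 CPM reached 1, and at most 6 members a list by p. Genes with only a clone, Gm or Rik identifier were left out of the 12. Promoters were read from a RefSeq table. The model was tested on simulated counts with independent libraries and far fewer changed genes than passed the threshold here. It recovered 32 of 50 genes at a log2 change of 0.25, 47 at 0.5, 50 at 1 and 41 at -0.5. Alternatives covered DESeq2 1.42.0 and limma 3.58.1 (voom), filters, covariates, group size, score genes and libraries left out. Those without 1 date label, within date labels that hold both groups and with the monocyte score were chosen after seeing the data.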

Additional observations from a re-analysis of the deposited data

How the results depend on the processing

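Over 27 alternatives, the counts ran from 2311 to 3828 genes higher and from 2341 to 3859 genes lower, each within 1.5 times of 3165 and 3222. With the DNA replication score as covariate they were 854 and 816, and with the score as a number in the 74 libraries between the groups 47 and 17, where fewer libraries and a narrower range of scores entered; the cause of the first was not tested. Of 108 genes named in the comparison, 98 kept their call and direction under the 27 alternatives. Arg1, Ccnd2, Cd74, Cdkn1b, Cdkn2a, Cxcl10, Epdr1, Gdf3, Il1b and Sesn1 each lost the call under at least 1 of them, with no change of sign. Gdf3 did so under 14, and Cdkn1b (adjusted p = 0.108) and Il1b (0.0571) without the date label whose 5 libraries were all mitosis-low. The settings outside the 27 removed most calls. Of the same 108 genes, 29 kept call and direction with the DNA replication score as covariate. There 54 lost the call with the same sign, and 25 changed sign. In the 74 libraries between the groups 18 kept both, 83 lost the call with the same sign and 7 changed sign. With the DNA replication score as covariate the log2 difference had the opposite sign for Abcg1 0.11, Arg1 0.36, Btg2 0.11, Ccl12 -0.095, Ccnd1 -0.0029, Ccnd2 0.054, Ccne1 -0.10, Cdkn1b 0.17, Cdkn1c 0.024, Cenpa 0.14, Ch25h -0.058, Dnajb11 -0.11, Fasn -0.20, Gdf3 -0.24, Insig1 -0.12, Klk1b11 0.16, Mdm2 0.15, Pdia4 -0.13, Sdc1 0.16, Sema3c -0.13, Stard4 -0.037, Ttc39a -0.26, Tyms -0.0098, Uaca -0.10, Vegfa 0.0017. In the 74 libraries the slope per unit of score had the opposite sign for Cdkn1b 0.037, Cxcl10 -0.028, Insig1 -0.093, Itgb3 0.058, Nptx1 0.20, Oas1g -0.20, Psat1 -0.020. None of these values of opposite sign passed the threshold. Their smallest adjusted p was 0.0762 by edgeR's quasi-likelihood test, for Cenpa with the replication score. Several, such as Vegfa, Ccnd1 and Tyms, lay near 0 within their SE. The cause was not tested. The odds ratio of labelled sex was 0.894 with groups from Nuf2, Kif4 and Shcbp1 (p = 1, Fisher's exact test) and 1.12 with all 6 genes. The slope counts in the 74 libraries ran from 63 to 77 over 4 alternatives, and the interaction with sex gave 0 genes without the libraries whose Y-linked counts went against their label. No paired analysis was possible because the replicate numbers were given in accession order and pair no mice. Genes of few counts were left out by the filter.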

Other observations

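A pair of gene families, picked by symbol after their values were seen, had lower levels in mitosis-high libraries while the DNA replication list was higher. Of 12 tested histone genes, taken only by a symbol that starts with Hist1, Hist2 or Hist3, 0 were higher and 9 lower by edgeR's quasi-likelihood test (median -0.43). With date label in place of plate 4 were lower (median -0.38), and with the DNA replication score as covariate 0 were lower (median -0.10). Hist1h1c, a linker histone, had medians of 77.9 CPM in mitosis-high and 107 CPM in mitosis-low libraries and a log2 difference of -0.46 ± 0.10 (SE; adjusted p = 8.47e-05), and Hist1h2bc (uncertain) of 8.19 CPM in mitosis-high and 11.4 CPM in mitosis-low libraries and -0.57 ± 0.10. As background, most of these transcripts lack a poly(A) tail in dividing cells, and per the labels the libraries were made from polyadenylated RNA. The part of this in the result was not tested. Of these genes 8 are uncertain because other annotated genes share their sequence.

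Of 81 tested genes of cytosolic ribosomal proteins, 2 were higher and 45 lower (median -0.18), or 1 and 35 with date label in place of plate, and 51 are uncertain because other annotated genes share their sequence. With the DNA replication score as covariate 0 were higher and 3 lower. Against all tested genes the shares were 26.5% higher and 27% lower with plate alone, and 7.16% and 6.84% with that score.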
